A study of Mus musculus with 6 samples.

Results

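The collagen gene family was followed in methotrexate-selected breast cancer cells and in the cells they came from. Members were all genes whose symbol in the array annotation is Col, a chain type number, the letter a and a chain number. This gave 44 genes of 19933 measured, and all 44 carry the same symbol in RefSeq. Membership followed the symbol alone, but this rule was set with earlier results of these data known. The arrays compared MR13 with WTR- to ask what differs in cells that survive chemotherapy. WTR- is the untreated 4T1 line, a mouse mammary carcinoma line, and was the control. MR13 is 4T1 selected with methotrexate (MTX), a folate antagonist, at 13 µg/ml for up to 2 weeks according to the sample labels, until colonies of survivors were visible. In the study's own text both the concentration and the duration differ from the labels, and the survivors were then returned to medium without drug. How many colonies founded MR13, and whether drug was present at RNA extraction, is not given in the sources used here. Each group had 3 arrays from triplicate wells, so every p value measures the spread between wells of a line and not between independent selections.

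Collagens are secreted or membrane proteins built from 3 chains wound into a helix, and each chain is the product of its own gene. Fibrillar collagens form the tension-bearing fibrils of connective tissue. Type IV collagen forms the sheet-like network of basement membranes, and FACIT collagens (fibril-associated collagens with interrupted helices) coat fibrils. Type VI collagen makes beaded microfibrils around cells, and transmembrane collagens sit in the plasma membrane. Most fibrillar collagen of a mammary tumor is made by fibroblasts, while carcinoma cells are known to secrete basement membrane chains.

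Values are deposited log2 signals of the probe set with the highest mean for each gene, and a difference is MR13 minus WTR-. Signals of separate probe sets also carry probe effects, so an order of signal between genes describes the arrays and not transcript levels. Across all probe sets, which are not independent replicates, Pearson's r was 0.9980 to 0.9987 within and 0.984 to 0.987 between the groups. WTR- replicate 3 stood below the other WTR- arrays for most collagens. It held the lowest WTR- value for 33 of the 44 genes, with a median deviation from the group mean of -0.07 over collagens and -0.01 over all genes. Of 6 epithelial markers 4 were lower in MR13, among them Epcam (11.01 to 6.71) and Cdh1 (11.05 to 7.81). Krt5 was called higher with groups that overlapped (5.50 to 5.77, limma adjusted p = 0.036). Krt8 was not called and stood at 13.41 in WTR- and 13.53 in MR13, and the log2 of the summed epithelial signal was 14.49 to 14.56 on WTR- and 14.20 to 14.32 on MR13 arrays. Of 10 fibroblast markers, Pdgfra (8.37 to 10.19), Dcn (5.18 to 6.87) and Acta2 (6.16 to 6.92) were higher, Postn was lower and 6 were not called, among them Lum, which stayed at 3.41 and 3.44. The log2 of the summed fibroblast marker signal ran from 9.38 to 9.54 on WTR- and from 10.62 to 10.80 on MR13 arrays. The median fibroblast marker difference was 0.12, and 40% were called, against 37.6% of all genes. Sums were taken on the linear scale, so bright genes weigh most, such as Pdgfra here and Krt8 and Krt18 of the epithelial markers. The median epithelial marker difference was -1.33, with 83.3% called. The part of either list in the collagen results was not tested. None of 8 endothelial markers was called by limma, and their summed signal was 8.36 to 8.47 and 8.49 to 8.51. Of 9 myeloid markers Cd68 and Cd14, the brightest of the list, were higher, 22.2% called against 37.6% of all genes. The sums were 10.33 to 10.42 and 10.75 to 10.90, and the median myeloid marker difference was 0.05. Ptprc, the pan-leukocyte marker, stood at 5.17 and 5.22 among the dimmest 30% of genes. In bulk RNA a change in the share of cells that express a gene and a change in RNA per cell cannot be told apart.

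Of the 44 collagen genes, 10 rose in MR13, 3 fell and 31 were not called by limma at an adjusted p under 0.05. Over all genes 17.0% were called higher and 20.6% lower, together 37.6%, against 29.5% of collagens. Among genes outside the dimmest 30%, where 43 of the 44 collagens lay, 50.7% of genes and 30.2% of collagens were called, and 7.12% of the dimmest genes were. The share of collagens called lay below that of all genes, and most members had no called difference from the untreated line. Col6a1 and Col12a1 rose at least 2-fold, as 1.96% of all genes did, and no collagen fell that far, as 2.10% did (4.06% in either direction). The groups did not overlap for 17 of the 44 collagens, 14 of them higher and 3 lower. Of all 19933 genes 47.4% had groups apart, 4428 genes higher and 5016 lower. The median collagen difference was 0.09, against 0.01 over all genes, and it was 0.03 without WTR- replicate 3. Leaving out that array changed 1 collagen call, that of Col6a3.

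**Figure D1:**
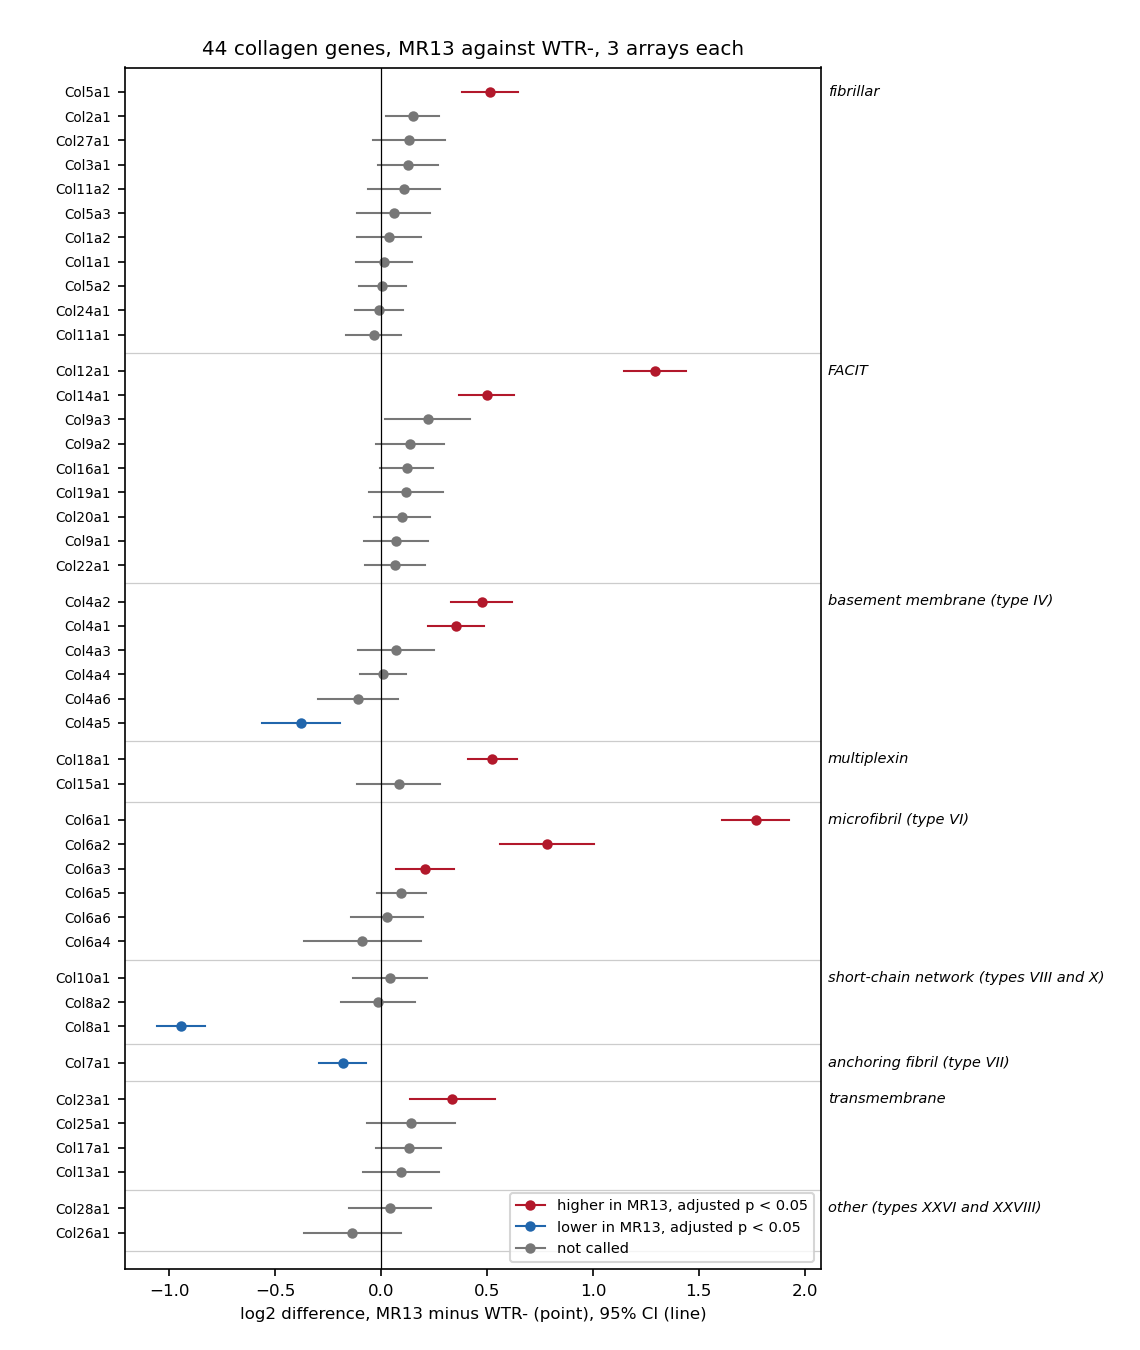
Each of the 44 collagen genes (y axis, by class) is plotted at its MR13 minus WTR- difference on the log2 scale (x axis); points are limma estimates from 3 arrays per group, lines are 95% confidence intervals and colours show the call. Col6a1 reaches 1.77 and Col8a1 -0.94, and 31 genes are not called.

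Type VI collagen gave the largest rise of the family. Its basic unit joins the alpha 1, alpha 2 and alpha 3 chains, and the genes of all 3 were called higher. Of the 6 type VI genes 50% were called, against 37.6% of all genes and 50.7% of genes not among the dimmest. Col6a1 read 8.08, 8.08 and 7.92 on the WTR- arrays and 9.70, 9.88 and 9.81 on the MR13 arrays. All MR13 values lay more than 1 log2 unit above the WTR- values, a 3.41-fold difference (1.77, SE 0.07, 95% CI 1.61 to 1.93, adjusted p = 1.90e-07) that ranked 124 among 19933 genes counted from the highest. Col6a2 read 7.02, 6.94 and 6.80 on WTR- and 7.50, 7.72 and 7.88 on MR13 arrays. It rose 1.72-fold with no overlap (0.78, SE 0.10, adjusted p = 0.00021), and its MR13 arrays were the more spread. Col6a3 read 6.41, 6.24 and 6.31 against 6.48, 6.54 and 6.57. Its rise was small (0.21, adjusted p = 0.023) and was not called without WTR- replicate 2 (adjusted p = 0.088), WTR- replicate 3 (0.056), MR13 replicate 2 (0.060) or MR13 replicate 3 (0.080), nor by a plain two-sample test with Benjamini-Hochberg adjustment (0.054). The 3 estimates differed in size. On each array the Col6a1 signal exceeded that of Col6a2 by 1.07, 1.14 and 1.12 in WTR- and by 2.20, 2.16 and 1.93 in MR13, a shift of 0.99 in this gap (exact permutation test, two-sided p = 0.10, the smallest that 3 arrays against 3 allow). The gap between Col6a1 and Col6a3 widened by 1.56 with the same exact p of 0.10, and both gaps were apart between the groups. In all 6 such pairs of chains were compared, each led by a called gene and chosen with the gene results known. A gap with groups apart therefore partly restates the call of that gene. The Benjamini-Hochberg adjusted exact p was 0.12 for the 5 pairs with groups apart, so no pair was called. Shifts of a gap describe change in signal and not the ratio of chains. The genes of the alternative chains that can replace alpha 3 were not called. Col6a5 differed by 0.09 with groups apart (6.23 against 6.32, adjusted p = 0.19), Col6a6 by 0.03 and Col6a4 by -0.09, and the second probe sets of Col6a5 and Col6a6 differed by 0.04 and -0.12 (adjusted p = 0.78 and 0.46 over all probe sets).

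**Figure D2:**
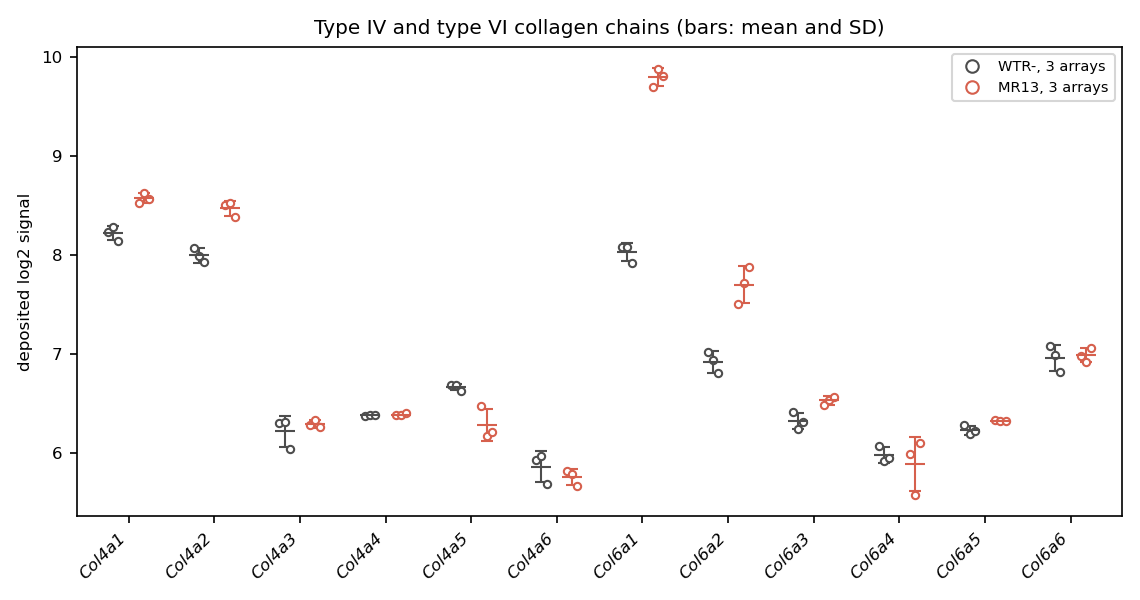
Deposited log2 signal (y axis) of the 6 type IV and 6 type VI collagen genes (x axis) with 1 point for each of 3 WTR- and 3 MR13 arrays and bars for mean and SD. Col6a1 moves from a mean of 8.03 to 9.80, and Col4a5 is the only type IV gene with MR13 arrays all below the WTR- arrays.

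Col6a2 and Col6a1 lie next to each other on mouse chromosome 10, and Col18a1 follows with 2 coding genes between. All 3 rose, so the genes around them were examined, a choice made after their values were seen. In the order of RefSeq assembly GRCm38.p6, the stretch from 6 coding genes before Col6a2 to 6 after Col18a1 held 16 measured genes. Of the 13 that are not collagens, 4 were higher, 4 lower and 5 not called. Over all genes 17.0% were higher and 20.6% lower, and 50.7% of those outside the dimmest 30% were called. Pcbp3, an RNA-binding protein gene next to Col6a1, rose by 0.27. Slc19a1, which lies between Pcbp3 and Col18a1 and encodes the carrier by which MTX enters cells, fell by 1.21, from 9.98 ± 0.02 to 8.77 ± 0.07 (SD, n = 3 each, limma adjusted p = 5.35e-07). Lss of cholesterol synthesis fell by 0.74 and Mcm3ap by 0.50, both before Col6a2. Adarb1, an RNA-editing enzyme gene beyond Col18a1, rose by 0.44. Called genes of both directions lay in the stretch, and the differences of its other genes were each smaller than that of Col6a1.

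**Figure D3:**
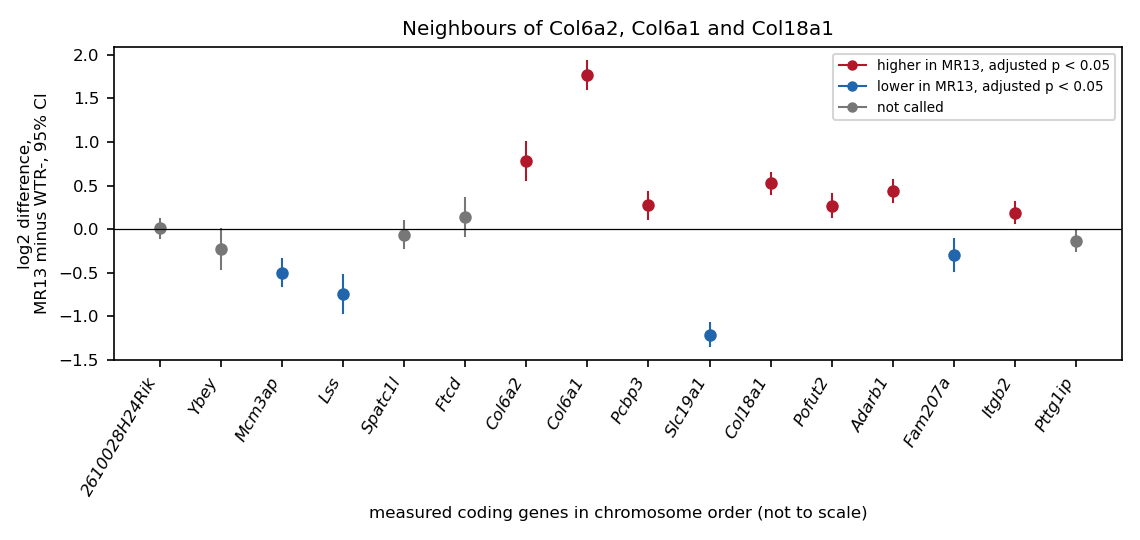
Log2 difference, MR13 minus WTR- (y axis), of the 16 measured coding genes around Col6a2, Col6a1 and Col18a1, in chromosome order and not to scale (x axis); points are limma estimates, lines 95% confidence intervals and colours the call. The collagen genes stand at 0.78, 1.77 and 0.52, with Slc19a1 at -1.21 between Col6a1 and Col18a1.

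The promoters of the neighbouring pair that rose and of Col8a1, the collagen with the largest fall, are shown, a choice made after their values were seen. Col12a1, which rose more than Col6a2, had no promoter sequence in the sources used here. Each is the 250 bases before the outermost start in RefSeq assembly GRCm38.p6, 5′ to 3′, and capitals mark matches to any of 6 motifs on either strand.
Col6a1 (chr10:76726045-76726294, minus strand): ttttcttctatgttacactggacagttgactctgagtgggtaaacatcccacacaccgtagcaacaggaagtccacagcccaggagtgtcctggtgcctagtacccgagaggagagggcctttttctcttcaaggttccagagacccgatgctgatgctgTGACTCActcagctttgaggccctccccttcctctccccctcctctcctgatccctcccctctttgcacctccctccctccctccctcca
Col6a2 (chr10:76623631-76623880, minus strand): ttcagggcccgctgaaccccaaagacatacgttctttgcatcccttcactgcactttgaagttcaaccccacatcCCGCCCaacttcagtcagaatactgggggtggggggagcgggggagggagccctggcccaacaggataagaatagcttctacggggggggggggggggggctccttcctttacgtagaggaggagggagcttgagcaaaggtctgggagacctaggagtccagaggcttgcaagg
Col8a1 (chr16:57754738-57754987, minus strand): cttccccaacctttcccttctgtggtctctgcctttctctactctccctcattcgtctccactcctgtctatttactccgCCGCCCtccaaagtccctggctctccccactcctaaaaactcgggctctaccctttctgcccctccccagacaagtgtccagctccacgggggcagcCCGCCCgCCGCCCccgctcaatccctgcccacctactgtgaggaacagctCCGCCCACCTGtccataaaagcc
The motifs searched were the TATA box TATAAA, the CCAAT box CCAAT, the GC box GGGCGG, the AP-1 site TGACTCA, the STAT consensus TTCNNNGAA and the E-box CAGGTG that ZEB and SNAI repressors bind. In Col6a1 the capitals are an AP-1 site, and in Col6a2 a GC box. In Col8a1 they are GC boxes and, overlapping the last of them, an E-box. An AP-1 site stood in 1 of 38 collagen windows, that of Col6a1, and in 4.46% of 32851 windows of all genes. GC boxes stood in 57.9% of collagen windows against 32.7% of all, CCAAT boxes in 34.2% against 33.8% and TATA boxes in 13.2% against 12.4%. STAT consensus matches stood in 2 collagen windows, 5.26% against 7.02% of all, those of Col28a1 and Col6a5, which were not called. The E-box was found in 4 collagen windows, 10.5%, against 17.2% of all. Windows were found for 35 of the 44 genes, and a match is a run of letters and not a measured site.

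Of the 6 type IV chains, which form basement membranes, 2 rose and 1 fell. This was 50% called, against 37.6% of all genes and 50.7% of genes not among the dimmest. Col4a1 and Col4a2, which encode the ubiquitous type IV heterotrimer and lie next to each other on chromosome 8, both rose. Col4a2 read 8.07, 7.99 and 7.92 on WTR- and 8.50, 8.53 and 8.38 on MR13 arrays. The groups were apart by a wide margin for a 1.39-fold difference (0.48, SE 0.06, adjusted p = 0.00031). Col4a1 read 8.23, 8.29 and 8.15 against 8.53, 8.63 and 8.57, a 1.28-fold difference (0.35, SE 0.06, adjusted p = 0.0011). Within arrays the gap between the pair shifted by only 0.12 and overlapped between the groups (exact permutation test, two-sided p = 0.20). The other type IV chains form networks limited to certain tissues. Col4a5 fell, with 6.68, 6.68 and 6.63 on WTR- and 6.47, 6.17 and 6.21 on MR13 arrays. All MR13 values were lower, by 0.38 on average (adjusted p = 0.0049), and the call was lost with the plain two-sample test (adjusted p = 0.051). Col4a6, its neighbour on the X chromosome, differed by -0.11 (95% CI -0.30 to 0.08). Col4a3 and Col4a4, adjacent on chromosome 1, differed by 0.07 and 0.01.

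Col18a1 of the multiplexins, a basement membrane proteoglycan chain from which endostatin is cleaved, rose 1.44-fold. It read 8.50, 8.49 and 8.46 on WTR- arrays and 8.98, 9.05 and 8.99 on MR13 arrays, with little spread in either group (0.52, SE 0.05, adjusted p = 4.45e-05). The other multiplexin gene, Col15a1, differed by 0.08 (95% CI -0.11 to 0.28). Col7a1, the chain of the fibrils that anchor epithelial basement membrane to the stroma, read 7.91, 7.89 and 7.89 against 7.71, 7.76 and 7.69. Its fall of 0.18 had groups apart (adjusted p = 0.017) but was not called without WTR- replicate 1 (adjusted p = 0.053), WTR- replicate 2 (0.0503) or MR13 replicate 3 (0.069), nor after quantile normalization was repeated (-0.11, adjusted p = 0.11).

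Among fibrillar genes 1 of 11 was called, 9.09% against 37.6% of all genes, and the others differed by at most 0.15 in either direction. Col1a1 and Col1a2, the chains of type I collagen, read 7.15 ± 0.02 and 6.84 ± 0.12 in WTR- and 7.17 ± 0.08 and 6.87 ± 0.01 in MR13 (SD, n = 3 each). Their differences were 0.01 (95% CI -0.12 to 0.14) and 0.04 (95% CI -0.11 to 0.19). Col3a1, which often shares fibrils with type I, differed by 0.13 (95% CI -0.01 to 0.27, adjusted p = 0.15). The exception was Col5a1, a chain of the type V collagen that nucleates fibrils. It read 7.47, 7.34 and 7.31 on WTR- and 7.90, 7.91 and 7.85 on MR13 arrays. No value overlapped, and the difference was 1.43-fold (0.51, SE 0.06, adjusted p = 0.00012). Its partner chains did not follow. Col5a2 stood at 5.88 in both groups (95% CI -0.11 to 0.12) and Col5a3 differed by 0.06. Without detection calls neither this signal of 5.88 nor that of the other fibrillar genes not called is shown to be above background. Of the cartilage-type chains, Col2a1 was the nearest to a call (0.15, groups apart, adjusted p = 0.064), and it was called after repeated quantile normalization (adjusted p = 0.017) and without the dimmest genes (0.037). The remaining fibrillar genes, Col11a1, Col11a2, Col24a1 and Col27a1, differed by -0.03 to 0.13.

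**Figure D4:**
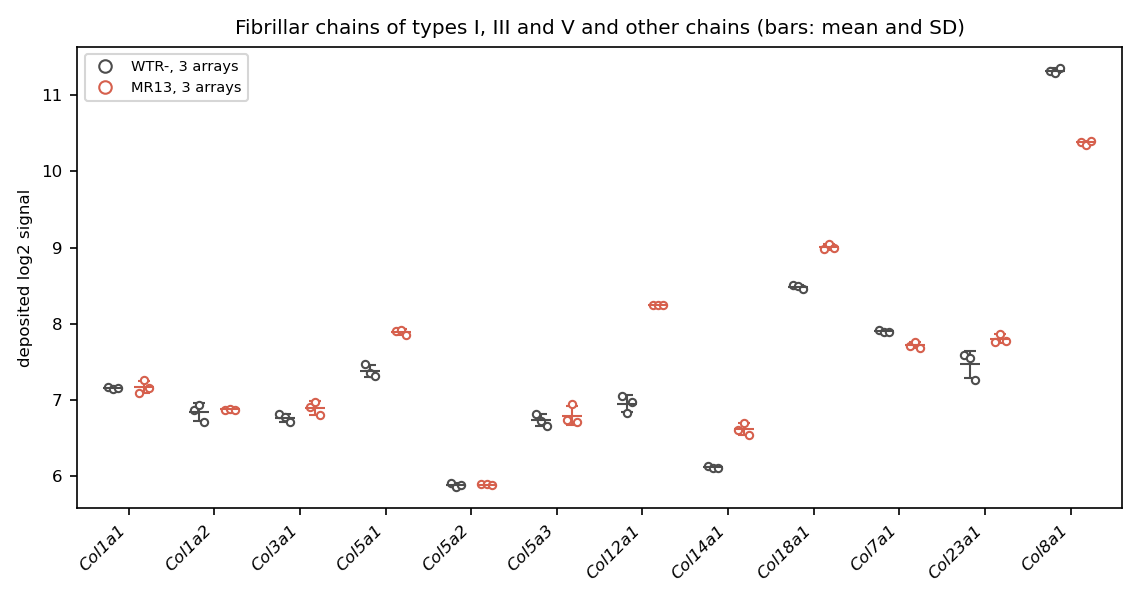
Deposited log2 signal (y axis) of chains of types I, III and V and of 6 other collagen genes (x axis) with 1 point for each of 3 WTR- and 3 MR13 arrays and bars for mean and SD. Col12a1 moves from a mean of 6.95 to 8.24 and Col8a1 from 11.33 to 10.38, while Col1a1, Col1a2 and Col5a2 overlap.

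Among the FACIT genes 2 of 9 rose, and the 22.2% called compares with 37.6% of all genes. Col12a1, whose product lies on type I fibrils and is abundant in tissues under load, read 7.05, 6.83 and 6.97 on WTR- arrays and 8.24 on each MR13 array. It was 2.45-fold higher with the groups far apart (1.29, SE 0.06, 95% CI 1.15 to 1.44, adjusted p = 7.68e-07) and ranked 237 among all genes from the highest. Col14a1, the closest relative of Col12a1 in domain structure, read 6.13, 6.10 and 6.11 against 6.60, 6.70 and 6.54, a 1.41-fold rise from a low signal (0.50, SE 0.06, adjusted p = 0.00013). The other 7 FACIT genes all differed by less than Col14a1, from 0.07 to 0.22, and none was called. Col9a2, the FACIT gene of highest mean signal, read 7.69, 7.62 and 7.45 on WTR- and 7.76, 7.74 and 7.67 on MR13 arrays, so that the groups overlapped. Col9a3 (0.22, adjusted p = 0.083) was called without WTR- replicate 1 (0.29, adjusted p = 0.032) and after repeated quantile normalization (adjusted p = 0.029), and Col16a1 (0.12, adjusted p = 0.13) only after the latter (adjusted p = 0.031).

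Transmembrane collagens shed their outer part from the cell surface, and 1 of their 4 genes was called, 25% against 37.6% of all genes. Col23a1 read 7.59, 7.54 and 7.26 on WTR- and 7.76, 7.87 and 7.77 on MR13 arrays, with groups apart and WTR- replicate 3 the lowest (0.34, SE 0.09, adjusted p = 0.015). Without that array the difference was 0.23 and remained called, but the call was lost without MR13 replicate 2 (adjusted p = 0.059) and with the plain two-sample test (adjusted p = 0.098). Col17a1, the hemidesmosomal collagen of basal epithelial cells, differed by 0.13 (6.34 ± 0.11 against 6.47 ± 0.06, SD, n = 3 each), Col13a1 by 0.09 and Col25a1 by 0.14.

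The collagen with the largest fall was Col8a1, a short-chain network collagen made by endothelial and other cells. It read 11.32, 11.29 and 11.36 on WTR- arrays and 10.39, 10.35 and 10.40 on MR13 arrays. Both groups were tight, and MR13 was 1.92-fold lower (-0.94, SE 0.05, 95% CI -1.06 to -0.83, adjusted p = 1.11e-06), rank 484 among all genes from the lowest. Col8a2, which can assemble with it, stood at 5.97 and 5.95 (95% CI of the difference -0.19 to 0.16). Col10a1, the related hypertrophic cartilage chain, was the only collagen among the dimmest 30% of genes and differed by 0.04. Col26a1, which read 7.67, 7.40 and 7.26 against 7.41, 7.22 and 7.29, and Col28a1 were not called. For all 31 genes not called, the 95% confidence interval lay within 2-fold in either direction, from -0.37 to 0.42 at its widest reach, and 25 of these differences were above 0 and 6 below. Without WTR- replicate 3, which held the lowest WTR- value for most collagens, 20 were above 0 and 11 below.

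The genes that make, bind or cleave collagen were read from 4 lists. Of 18 measured genes of chain folding and modification, 12 rose and 2 fell, with a median difference of 0.39. This was 77.8% called, against 37.6% of all genes and 50.7% of those outside the dimmest 30%. P3h2, a prolyl 3-hydroxylase known to act on type IV chains, rose from 7.97 ± 0.10 to 10.57 ± 0.03 (SD, n = 3 each, 6.06-fold, limma adjusted p = 1.23e-08). The lysyl hydroxylase gene Plod1 read 8.69, 8.79 and 8.65 against 10.29, 10.51 and 10.34 and was 3.18-fold higher (adjusted p = 2.94e-07). Named after their values were seen, the prolyl 4-hydroxylase genes P4ha2 (1.38) and P4ha1 (0.92), P3h1 (0.99) with its partner Crtap (0.69), and the collagen chaperone Serpinh1 (0.78) also rose. P3h3 (-0.83) and the galactosyltransferase Colgalt1 (-0.25) were the members that fell, and P4hb, the shared subunit of prolyl 4-hydroxylase, differed by 0.12 with groups apart (adjusted p = 0.10).

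Of 11 genes of procollagen processing and crosslinking, 4 rose and 2 fell, with a median of 0.02 and 54.5% called, against 37.6% of all genes and 50.7% of those outside the dimmest 30%. Pcolce, an enhancer of C-propeptide removal, rose 1.74-fold (0.80, SE 0.05, adjusted p = 4.72e-06). Loxl4, a lysyl oxidase that crosslinks chains, was 9.96 ± 0.11 in WTR- and 8.52 ± 0.09 in MR13 (SD, n = 3 each), 2.71-fold lower (limma adjusted p = 7.64e-07). Lox (4.46 to 4.88, adjusted p = 0.015) was among the dimmest 30% of genes, and the procollagen protease gene Bmp1 fell by 0.18 (adjusted p = 0.021). Lox was not called without WTR- replicate 1 (adjusted p = 0.059), WTR- replicate 2 (0.055), MR13 replicate 2 (0.063) or MR13 replicate 3 (0.052), nor by the plain two-sample test (0.12). Adamts3, an N-propeptidase gene counted among the 4, was called at 0.29 but differed by -0.029 when its probe sets were averaged. The higher count dropped to 2 without WTR- replicate 2, MR13 replicate 2 or MR13 replicate 3, and to 1, Pcolce, with the plain two-sample test. Bmp1 was not called without WTR- replicate 1, WTR- replicate 2 or MR13 replicate 3, which left 1 gene, Loxl4, lower.

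Among 9 collagen receptor genes, 1 rose and 2 fell, and the 33.3% called was near the 37.6% of all genes. Itga1 and Itga2 encode the integrin alpha chains best known for binding type IV and type I collagen. Itga1 read 7.24, 7.19 and 7.17 on WTR- and 8.60, 8.71 and 8.64 on MR13 arrays, 2.72-fold higher (1.44, SE 0.05, adjusted p = 1.39e-07). Itga2 read 11.17, 11.14 and 11.10 against 9.27, 9.25 and 9.14, 3.78-fold lower (-1.92, SE 0.06, adjusted p = 3.42e-08). The groups of both were far apart and moved in opposite directions. Their shared beta chain Itgb1 fell by 0.36 (adjusted p = 0.00038), and the kinase receptors Ddr1 and Ddr2 differed by 0.04 and 0.14 without a call. Of 10 collagen-degrading proteases 5 rose and none fell, where 17.0% of all genes rose and 20.6% fell. Mmp14, 1 of the 5, was not called without WTR- replicate 2 (adjusted p = 0.073), WTR- replicate 3 (0.064) or MR13 replicate 2 (0.074). Mmp9, a gelatinase that also cleaves type IV collagen, was 2.58-fold higher (1.37, SE 0.06, adjusted p = 2.55e-07), and Mmp1b, among the dimmest genes, rose by 0.55 (adjusted p = 0.00028). Mmp2, Mmp8, Mmp16, Ctsk and Fap were not called (-0.08 to 0.09).

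**Figure D5:**
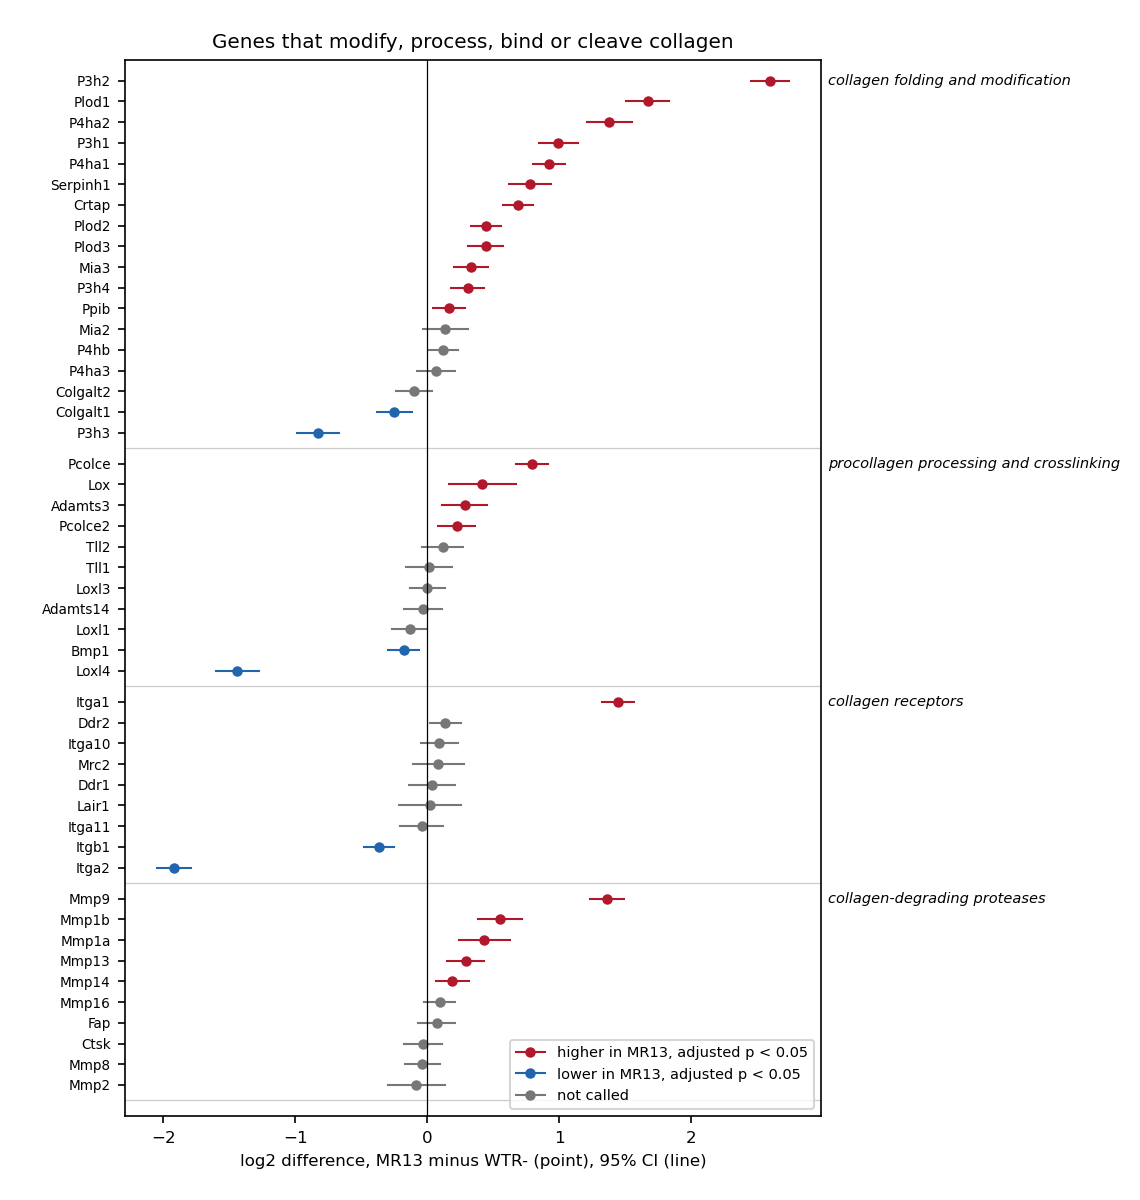
The measured genes of 4 lists of collagen enzymes, receptors and proteases (y axis) are plotted at their MR13 minus WTR- difference on the log2 scale (x axis); points are limma estimates from 3 arrays per group, lines 95% confidence intervals and colours the call. P3h2 reaches 2.60 and Itga2 -1.92, and 12 of 18 folding and modification genes are higher.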

How the data were processed

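Biotin-labelled RNA from cultured cells was read on 6 arrays of the Affymetrix Mouse Gene 1.0 ST design. The deposited values were log2 signals, 1 per probe set, normalized between arrays by the authors. Their processing notes name affy and limma, with versions and methods not given in the sources used here, and the unit was taken from the range of the values. Of 28350 probe sets, 21780 had 1 gene symbol, 1618 several and 4952 were unnamed here, and 0 columns of other series were present. No probe set with several symbols held a collagen. The brightest probe set stood for each gene.

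Groups and replicate numbers came from the sample titles. The test of MR13 against WTR- was limma's two-sided moderated test (lmFit and eBayes without covariates, limma 3.58.1 in R 4.3.3), with Benjamini-Hochberg adjustment over 19933 genes and a call at an adjusted p under 0.05. Array number limits the precision, and without detection calls differences of dim genes can be understated. The members, classes and lists were chosen with earlier results of these data known. Values on every array were given for collagens that were called or had the highest mean of their class, and for each other list the 2 called genes with the largest rise and the 2 with the largest fall were named. Alternatives were another normalization or centring, a filter on dim genes, probe set averaging, other variance models, the replicate number as a block, a plain two-sample test, limma's treat at 1.5-fold, and leaving out each array. The fit was tested on simulated data.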

Additional observations from a re-analysis of the deposited data

How the results depend on the processing

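The 13 collagen calls were recomputed under 14 alternatives, and of 182 values 160 kept direction and call, 22 lost the call and 0 changed direction. Col6a1, Col12a1 and Col8a1 stayed called under all 14. All 13 were called with the replicate block (the numbers shared by the groups), which called 10 collagens higher and 3 lower and 37.3% of all genes. The block ended the call of Ppib, a folding gene counted as higher (adjusted p = 0.055). Ppib was also not called without WTR- replicate 1 (limma adjusted p = 0.10), WTR- replicate 2 (0.088), MR13 replicate 1 (0.075) or MR13 replicate 3 (0.12). Same-numbered arrays correlated in their deviations at 0.08, 8.67e-05 and 0.19, so the numbers were not taken as pairs. Testing for more than 1.5-fold (treat) left 529 genes higher and 616 lower, 2 collagens higher and 1 lower. By class it left 0 fibrillar, 0 transmembrane, 0 multiplexin, 0 type IV and 0 type VII genes. It left 1 FACIT and 1 type VI gene higher and 1 short-chain network gene lower. Of the other lists it left 5 folding genes higher and 0 lower, and 1 processing gene higher and 1 lower. It also left 1 receptor gene higher and 1 lower, and 1 protease higher. Repeated quantile normalization gave 2 fibrillar, 4 FACIT, 0 type VII and 2 higher receptor genes. Leaving out the dimmest genes gave 2 fibrillar and 2 higher receptor genes, and so did eBayes with trend for receptors (2). The plain two-sample test gave 0 transmembrane genes, 0 lower type IV genes, 1 higher processing gene and 2 higher receptor genes. With 1 array left out, collagen counts ran from 8 to 11 higher and from 2 to 3 lower, transmembrane genes from 0 to 1, type VII from 0 to 1, and processing genes from 2 to 4 higher and from 1 to 2 lower. Adamts3, called higher, turned to -0.029 with the mean of its probe sets. The other reversals were of collagens that were not called. Col5a2 turned to -0.014 with quantile normalization, and Col6a6 to -0.045 with the mean of its probe sets. With an array left out these differences ran as follows: Col10a1 -0.021 to 0.11, Col11a1 -0.060 to 0.0052, Col15a1 -0.0055 to 0.15, Col1a1 -0.031 to 0.052, Col1a2 -0.029 to 0.085, Col24a1 -0.031 to 0.0024, Col28a1 -0.044 to 0.10, Col4a3 -0.020 to 0.12, Col4a4 -0.00030 to 0.012, Col5a2 -0.011 to 0.018, Col5a3 -0.015 to 0.10, Col6a4 -0.19 to 0.065, Col6a6 -0.045 to 0.084, Col8a2 -0.10 to 0.041. The cause of these changes was not tested, and no detection calls bound the dim genes.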
